A study of Arabidopsis thaliana with 4 samples.

Results

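Roots of the Arabidopsis thaliana mutant wrky47-1, called wrky47 here, were compared with and without aluminium (Al) on 2 arrays, 1 for each condition. The comparison covers every gene that a probe set, a group of short probes reading 1 transcript, names alone: 20550 of the 22810 probe sets named 1 gene and gave 20341 genes. The measure of a gene was its log2 signal in wrky47 Al minus its log2 signal in wrky47 control. A gene is called measured where its signal was above a detection floor on both arrays, which held for 12465 genes. The floor was the 40th percentile of the non-control probe sets of an array, a linear signal of 79.1 in wrky47 control and 75.1 in wrky47 Al. A gene was counted as higher or lower where the arrays differed by at least 2-fold, a log2 difference of 1, and "rose" and "fell" are used in that sense.

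The wrky47 control group was roots of 4-week-old wrky47-1 plants from hydroponic culture, kept for 6 h in 0.5 mM CaCl2 without Al. The wrky47 Al group had the same genotype, age and time, and its 0.5 mM CaCl2 held 25 µM AlCl3 in addition. The study has the same 2 conditions for wild-type roots, with 1 array a group, so 4 groups and 4 arrays in all. Neither the kind of mutation in wrky47-1, nor the number of plants behind an array, nor the wild-type background is given in the sources used here, and the mutant is represented by 1 line. With 1 array a group no spread between replicates exists, so no p-value was computed, and each difference is one between 2 arrays without a replicate check.

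Al becomes soluble in acid soil and stops root growth within hours. In Arabidopsis the transcription factor STOP1 switches on the malate channel ALMT1 and the citrate transporter MATE, whose exported acids bind Al outside the root, and the cell wall, where much of the Al binds, is remodelled. WRKY47 belongs to the WRKY family of transcription factors, many of which act in stress and defence.

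Technical values of the 2 arrays were similar. The number of genes above the floor was 12855 in wrky47 control and 12838 in wrky47 Al. The 3' minus 5' log2 difference of the Actin probe sets, a measure of RNA length, was 0.93 in wrky47 control and 0.68 in wrky47 Al, and that of GAPDH was -0.01 and 0.21. The bioB hybridisation control had mean log2 signals of 7.13 and 7.24 in the same order. Of 5 green tissue markers on the array 2 were measured, and the markers' summed signal was 333.8 in wrky47 control and 430.4 in wrky47 Al; LHCA4, of the light-harvesting antenna, rose from 93.5 to 193 (1.05). Of 6 markers of the stele and endodermis, the inner tissues of a root, 5 were measured, while 2 of 16 root hair markers and 0 of 5 markers of the root cap and meristem were. The summed signal of the root hair markers was 2714 in wrky47 control and 1929 in wrky47 Al, and its part in the values of wall genes was not tested. In whole roots fewer cells of a type and less RNA per cell cannot be told apart, and this holds for every difference below.

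A small share of the genes differed between the wrky47 arrays, and more rose with Al than fell. Of the 12465 measured genes 426 rose, which is 3.42%, and 245 fell, which is 1.97%, so that 5.38% passed 2-fold in either direction. A further 71 genes above the floor only in wrky47 Al were higher by at least 2-fold against the floor of the control array, and 38 above it only in wrky47 control were lower by at least 2-fold. At 4-fold 65 genes were higher and 32 lower, and at 8-fold 9 were higher and 3 lower. Most genes stayed close to the control: 84.2% of the measured genes differed by less than 1.5-fold. The median log2 difference over all measured genes was -0.07, with 42.2% of them above 0 and 57.8% below, and medians of gene lists are to be read against it. As a scale for these counts, the control arrays of the 2 genotypes, both without Al, differed by 2-fold at 39 of 12602 genes, 0.309%, with 0.103% higher and 0.206% lower in wrky47. That share holds the effect of the genotype too.

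**Figure D1:**
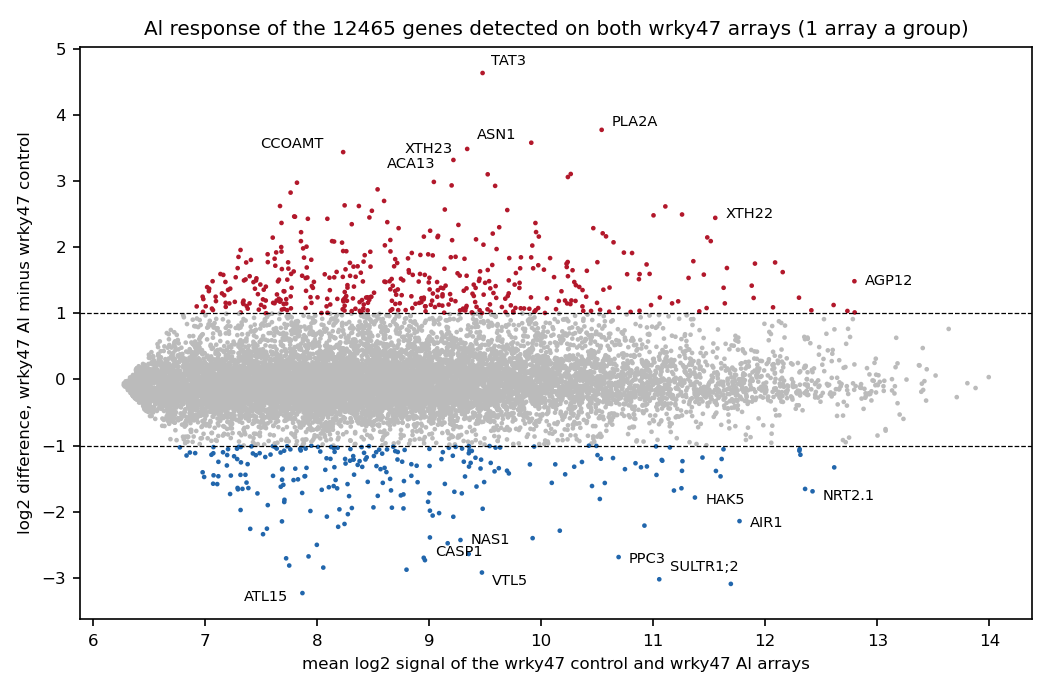
Each point is 1 of the 12465 measured genes, with the mean log2 signal of the 2 wrky47 arrays on the x axis and the log2 difference (wrky47 Al minus wrky47 control) on the y axis. Red points are the 426 genes that rose, blue points the 245 that fell and dashed lines mark 2-fold, and the calls reach from the dimmest to the brightest genes.

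The calls were spread over the whole range of brightness. When the measured genes were ordered by mean signal and divided into 4 bins of equal size, from dim to bright, 56, 119, 122 and 129 genes rose and 46, 75, 69 and 55 fell. The interquartile range of the log2 difference was 0.40 in the dimmest bin and 0.48 in the brightest.

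WRKY47 itself (AT4G01720, chromosome 4, 744948 to 748219 on the plus strand in the authors' table, which names no genome build) lay below the floor on both wrky47 arrays, with signals of 27.5 in control and 24.1 in Al. It was detected in wild type, at 173 without and 203 with Al. XTH17, a xyloglucan endotransglucosylase/hydrolase (XTH) that cuts and rejoins the xyloglucan of the wall, had a signal of 63.1 in wrky47 control, under the floor, and 343 in wrky47 Al, at least 4.34-fold higher. ELP, an extensin-like protein, went the other way, from 191 in control to 46.4 in Al, under the floor, which is at least 2.54-fold lower. The gene after which the mutant is named was thus not detected, though whether the probe set lies in the disrupted part is not stated, and both wall genes differed with Al.

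The gene with the highest difference was TAT3 (AT2G24850, chromosome 2, 10583069 to 10585152 on the minus strand), a tyrosine aminotransferase known as a marker of the jasmonate response. Its signal was 143 in wrky47 control and 3556 in wrky47 Al, a log2 difference of 4.64. PLA2A, a patatin-like lipid hydrolase that acts on membrane lipids, went from 402 to 5513, a log2 difference of 3.78. ASN1, which makes asparagine from aspartate and glutamine and is known to be induced in darkness and sugar shortage, went from 278 to 3333, a difference of 3.58. These leading genes belong to hormone output, lipid breakdown and nitrogen storage. Wall and lignin genes came next. The XTH family member XTH23 had signals of 193 in control and 2171 in Al (3.49 on the log2 scale), and XTH18 had 418 and 3493 (3.06). CCOAMT, titled a caffeoyl-CoA O-methyltransferase in the authors' table, an enzyme activity of lignin building, had 91.3 and 991 (3.44). The blue copper-binding protein BCB, long used as an Al-induced gene, had 419 and 3613 (3.11).

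The other genes among the 25 highest with a symbol covered calcium, ethylene, detoxification and transcription. ACA13, titled a calcium-transporting ATPase, rose from 188 to 1881, a log2 difference of 3.32, and the cyclic nucleotide-gated channel CNGC19 from 90.4 to 467, a difference of 2.37. ACS7, an enzyme that makes the ethylene precursor ACC, rose from 80.6, just above the floor, to 634 (2.98). UGT74E2, which glycosylates the auxin precursor indole-3-butyric acid, rose from 137 to 1009 (2.88). The transcription factor genes WRKY75, NAC042 and NAC3 (AT3G15500, titled ANAC055) had log2 differences of 2.63, 2.47 and 2.43. NANA, an aspartyl protease, had 2.62, the asparaginase gene ASPGB1 2.56, the arabinogalactan protein gene AGP2 2.48 and the homocysteine methyltransferase gene HMT-1 2.34. The rest of the 25 were glutathione S-transferases, P450 enzymes, XTH22 and ABCG16, given with their groups.

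**Figure D2:**
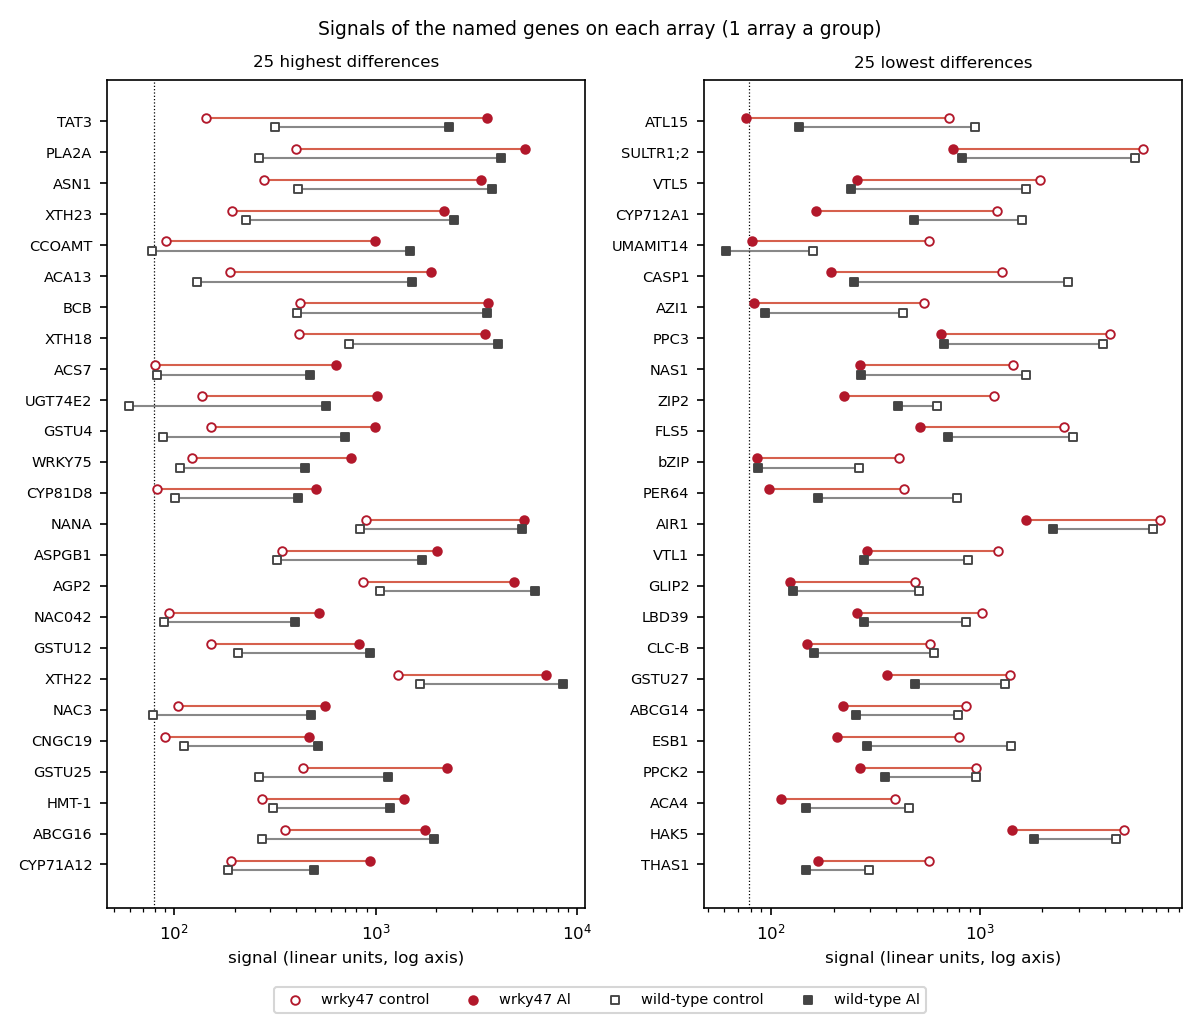
Signals on a log axis are shown for the 25 genes with a symbol that had the highest (left) and the 25 that had the lowest (right) log2 difference in wrky47, with circles for wrky47, squares for wild type, open symbols for control and filled symbols for Al, 1 array each. The dotted line is the floor of the wrky47 control array, 79.1, and in each row the filled circle lies on the same side of the open circle as the filled square of the open square.

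Genes without a symbol were also among the calls: 189 of the 426 genes that rose and 111 of the 245 that fell had none in the gene table used. Of all 20341 genes, measured or not, 8924 had a symbol, so the share without one was not higher among the calls. AT2G32190, titled hypothetical, rose from 251 to 2157, a log2 difference of 3.1, and AT4G28085 and AT2G23270, also hypothetical, had differences of 2.99 and 2.94. AT5G52670 and AT5G52760, both titled copper transport proteins, had 2.93 and 2.55. AT3G16530, titled legume lectin-like, had 2.83, the MATE efflux family gene AT1G71140 had 2.62 and AT5G45280, titled a pectin acetylesterase family protein, had 2.5. AT3G54150, titled methyltransferase-like, had 2.57. Among genes seen above the floor only with Al, MAPKKK19, a protein kinase gene, had a signal of 60.1 in control and 497 in Al and was higher by at least 6.28-fold. LOG5, a cytokinin-activating enzyme, and the beta-glucosidase gene BGLU32 were each at least 4.27-fold higher, and for NAC019 and sks9 the bounds were 4.13-fold and 4.44-fold.

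The gene with the lowest difference was ATL15 (AT1G22500, chromosome 1, 7949580 to 7950726 on the plus strand), titled a RING zinc finger protein, which fell from 717 in wrky47 control to 76.3 in wrky47 Al, just above the floor, a log2 difference of -3.23. SULTR1;2 (AT1G78000, chromosome 1, 29329888 to 29332877 on the plus strand), the main transporter for sulfate uptake by roots, fell from 6064 to 746, a difference of -3.02. AT4G15390, titled an acyltransferase family protein, fell from 9674 to 1133 (-3.09). Unlike ATL15, the latter pair remained far above the floor. VTL5, titled a vacuolar iron transporter homolog, fell from 1954 to 258 (-2.92). UMAMIT14, an amino acid exporter, fell from 572 to 81.2 (-2.82), and PPC3, a phosphoenolpyruvate carboxylase that feeds carbon into organic acids, from 4197 to 651 (-2.69). The kinase gene PPCK2, whose product phosphorylates that carboxylase, fell from 967 to 268 (-1.85).

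Other genes among the 25 lowest came from several roles. AZI1, a lipid transfer-like protein of systemic immunity, had a log2 difference of -2.71, AIR1, titled lipid binding, -2.14, and the lipase gene GLIP2 -1.99. The P450 gene CYP712A1 had -2.88, the flavonol synthase family gene FLS5 -2.29, and bZIP (AT1G68880, titled basic leucine-zipper 8) -2.26. ABCG14, which exports cytokinin from root to shoot, had -1.95, the vacuolar calcium pump gene ACA4 -1.82 and the CLC family gene CLC-B -1.97. Codes without a symbol included AT5G15180 (peroxidase 56) at -2.85, AT1G11540 (TauE/SafE family) at -2.7, AT4G13580 (dirigent domain) at -2.68, AT1G52820 (dioxygenase) at -2.64, AT3G29410 (terpenoid synthase 25) at -2.48, AT1G76800 (nodulin-like) at -2.5 and AT3G46270 (receptor kinase-like) at -2.4. Below the floor only with Al, FAH1 (AT4G36220), the ferulate 5-hydroxylase that directs lignin toward syringyl units, was at least 6.95-fold lower, with 522 in control, and the peptide signal gene RALFL27 was at least 4.53-fold lower.

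Genes of Al tolerance rose in part. All 14 listed were measured, 2 rose, 1 fell and 9 were above 0, with a median of 0.67. PGIP1, a polygalacturonase-inhibiting wall protein whose gene STOP1 controls, went from 1617 to 4853 (1.59), and MATE from 389.9 to 856 (1.13). ALMT1 had 1962 in control and 3475 in Al, a difference of 0.82, short of 2-fold. STOP1, whose product is known to be regulated mainly as a protein, was at 0.28. The ABC transporter genes ALS3 and ALS1, which move Al within the plant and into the vacuole, were at 0.69 and 0.93. STAR1, whose product works with ALS3, fell from 1056 to 525, a difference of -1.01 that sits at the threshold. Among organic acid enzymes 1 of 7 measured genes, PPC3, fell and 0 rose, with a median of -0.36, and the citrate synthase genes CSY4 and CSY3 were at -0.39 and -0.06.

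Transcription factors of rapid stress responses and calcium sensors were mostly above 0. Of 9 measured rapid stress factors 3 rose, 0 fell and 8 were above 0, with a median of 0.83. MYB15 rose from 236 to 1124 (2.25), and the zinc finger genes ZAT10 and ZAT12 had 1.47 and 1.43. DREB2A, a regulator of drought and heat responses, was at -0.94. Of 9 measured touch and calcium genes 4 rose and 0 fell, with a median of 0.74. TCH3, a calmodulin-like protein first found by touch induction, rose from 2357 to 8039.8 (1.77), and CML38 from 350.0 to 1065 (1.61). In the broader calmodulin-like family 4 of 21 measured genes rose and 0 fell, AT3G47480 leading at 1.92 and CML41 at 1.69.

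Among transcription factor families the WRKY family, the one with the most measured members, had the most that rose. Of its 47 measured members 11 rose and 2 fell, with a median of 0.23, beside 3.42% up and 1.97% down over all measured genes. WRKY75 went from 122 to 757 (2.63) and WRKY45 from 112 to 479 (2.09). WRKY18, WRKY40 and WRKY33, regulators of immune responses, rose by log2 differences of 1.71, 1.29 and 1.35, and WRKY6, WRKY31, WRKY28, WRKY26 and WRKY56 by 1.41, 1.4, 1.36, 1.23 and 1.19. WRKY27 and WRKY7 fell, by log2 differences of -1.45 and -1.08. In the NAC family 6 of 35 measured members rose and 1 fell, with a median of 0.39. NAC042, known to dampen senescence, rose from 94.6 to 523, and NAC6, NAC032 and ANAC087 had differences of 1.86, 1.51 and 1.52. In the MYB family 6 of 44 measured members rose and 1 fell, with a median of 0.27, and MYB108 had 1.72.

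Some jasmonate genes rose, at several steps of the pathway. Jasmonate is made from membrane lipids, and JAZ proteins repress its targets until it is perceived. Of 6 measured synthesis genes 2 rose and 0 fell, with a median of 0.49. ACX1, an acyl-CoA oxidase of the last steps, rose from 1389 to 3279 (1.24), and AOC3, an allene oxide cyclase, from 501 to 1006 (1.01). The value of AOC3 sits at the threshold. AOS, allene oxide synthase, had a signal of 522 on both arrays. Of 10 measured JAZ and turnover genes 3 rose, 0 fell and 8 were above 0, with a median of 0.70. JAZ5 rose from 179 to 659.7 (1.88), JAZ10 from 199 to 463 (1.22) and JAZ1 from 1906 to 3893 (1.03). The activator gene MYC2 was at -0.04, beside 4.64 for TAT3.

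Ethylene genes differed at synthesis and output but not past 2-fold at perception. Among 5 measured synthesis genes ACS7 and ACS6 rose, ACS6 from 901 to 1939 (1.11), and ACS2 was at least 2.18-fold higher. The ACC oxidase gene ACO1 (AT2G19590), of the final step, was at -0.71. Of 10 measured receptor and signalling genes 0 rose and 0 fell, with a median of 0.15 and a range from -0.57 for EIN2 to 0.58 for CTR1. Of 9 measured ethylene response factors of a short list 6 rose and 1 fell, with a median of 1.18. That list was chosen with earlier results of these data known, so its median is not ranked against others. In the broader ERF/DREB family 6 of 23 measured members rose and 1 fell, 12 were above 0 and 11 below, and the median was 0.09. ERF6 rose from 285 to 1225 (2.11), ERF2 had 1.49, and ERF5, ERF11, ERF105 and ERF1A lay between 1.14 and 1.25. ORA59, which joins jasmonate and ethylene signals at defence genes, fell from 199 to 91.5 (-1.12).

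Auxin genes differed by step. The GH3 enzymes, which conjugate auxin to amino acids, held the genes that rose: GH3.1 went from 102 to 411 (2.003), GH3.3 from 98.2 to 290.0 (1.56) and GH3.5 from 537 to 1253 (1.22). The synthesis genes TAR2, YUC8, YUC5 and YUC9 lay between -0.46 and 0.4. Of 7 measured auxin transport genes 0 rose and 0 fell, with a median of -0.20, and the influx carrier gene LAX3 was the lowest at -0.87. Of 5 measured auxin response genes IAA19, an auxin-induced repressor, rose from 446 to 920.2 (1.04). Abscisic acid and dehydration genes had a median of -0.02, with 0 of 11 measured rising and the receptor gene PYL6 falling from 1123 to 441 (-1.35). The receptor genes PYL5 and PYL4 were at -0.98 and -0.68, and RD29A, a classic drought-induced gene, was at 0.88.

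Several immunity genes linked to salicylic acid rose, but not the synthesis gene ICS1. Of 17 measured genes 7 rose, 0 fell and 14 were above 0, with a median of 0.86. PBS3, which conjugates isochorismate on the way to salicylic acid, rose from 2093 to 7055 (1.75), WRKY70 from 1152 to 3484 (1.6) and ALD1, the first enzyme of pipecolic acid synthesis, from 373 to 912 (1.29). The lipase-like partners EDS1, PAD4 and SAG101 rose together, at 1.08, 1.1 and 1.25, and the danger peptide gene PROPEP3 at 1.2. ICS1, isochorismate synthase, was at -0.25 and its regulators CBP60G and SARD1 at -0.25 and 0.87.

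The antimicrobial indole compound camalexin is made from tryptophan through the same aldoxime as indole glucosinolates. Of 14 measured genes of both pathways 5 rose and 0 fell, but the median was 0.07. CYP71A12 and PAD3, of the camalexin branch, rose from 192 to 937 (2.29) and from 119.6 to 481 (2.01). The regulators MYB51 and MYB122 and the glucosinolate-modifying CYP81F2 had 1.4, 1.22 and 1.89. The core genes CYP83B1 and SUR1 of glucosinolate synthesis were at -0.71 and -0.4, and CYP79B3, which makes the shared aldoxime, at -0.65.

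Several detoxification genes rose. Glutathione S-transferases (GSTs) join glutathione to reactive compounds, and the tau class is known for stress induction. Of 19 measured GSTs 7 rose and 1 fell, with a median of 0.65, and the 7 were all of the tau class. GSTU4 rose from 152 to 989 (2.7), GSTU12 from 151 to 828 (2.45) and GSTU25 from 435 to 2245 (2.37). GSTU11, GSTU24, GSTU8 and GSTU26 lay between 1.52 and 1.98, and GSTU27 fell from 1405 to 362 (-1.96). Of 5 measured genes of xenobiotic detoxification 3 rose and 0 fell, with a median of 1.55. CYP81D8 rose from 82.0 to 506 (2.62), and the transporter gene ABCG40 from 90.6 to 265 (1.55). The MATE family gene AT2G04050 was at least 4.43-fold higher.

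Mitochondrial stress genes rose in part, while no measured antioxidant enzyme gene passed 2-fold upward. Of 10 measured genes of alternative respiration and mitochondrial stress 5 rose, 0 fell and 9 were above 0, with a median of 0.99. OM66, a protein of the outer mitochondrial membrane, rose from 458 to 2149 (2.23), SOT12, a sulfotransferase, from 264 to 981 (1.89) and the dicarboxylate carrier gene DIC2 from 228 to 747 (1.71). AOX1A, the alternative oxidase that bypasses proton pumping, rose from 974 to 1997 (1.04), and the external NADH dehydrogenase gene NDB2 had 1.19. Of 13 measured antioxidant enzymes and oxidases 0 rose and CAT2 (AT4G35090), a catalase, fell from 2413 to 1058 (-1.19), with a median of -0.16. The superoxide dismutase genes FSD1 and CSD2 were at -0.72 and -0.61, and RBOHD, an oxidase that makes superoxide at the plasma membrane, was at 0.35.

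Genes of endoplasmic reticulum (ER) stress were all on one side. Each of the 10 measured was above 0 and 3 rose, with a median of 0.46. BIP3, an ER chaperone made under stress, rose from 692 to 1462 (1.08), BZIP60, a transcription factor of the unfolded protein response, from 1313 to 2698 (1.04) and the co-chaperone gene ERDJ3A from 148.0 to 306 (1.05). The general ER folding genes CRT1b, PDIL1-1 and CNX1 were at 0.06, 0.18 and 0.21. Heat shock genes of the cytosol had 0 of 7 measured past 2-fold and a median of 0.04.

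The XTH family held several of the cell wall genes that rose. Of 18 measured XTH genes 7 rose and 1 fell, with a median of 0.39. XTH22, known as TCH4 for its touch response, rose from 1288 to 7016 (2.45) and XTH24 from 2304 to 6161 (1.42). XTH19, XTH30 and XTH27 had 1.26, 1.19 and 1.14. XTH15 fell from 716 to 294 (-1.28), and XTH31, one of the XTHs with strong hydrolase activity, known for a part in Al binding by the wall, was at -0.71. Thus XTH17, XTH18, XTH22 and XTH23 were higher with Al while XTH15 was lower.

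Expansins, which loosen walls without cutting them, showed none past 2-fold. Of 12 measured expansin genes 0 rose and 0 fell, with a median of -0.02 and a range from -0.66 for EXPA20 to 0.93 for EXLA1. Cellulose synthesis genes of the primary wall had 0 of 9 past 2-fold and a median of -0.12, and those of the secondary wall 0 of 9 and -0.31. Among 32 measured arabinogalactan proteins, heavily glycosylated proteins of wall and membrane, 5 rose and 3 fell. AGP2 rose from 868 to 4852 (2.48), AGP10 from 1497 to 4340.3 (1.54) and AGP12 from 4249 to 11899 (1.49). FLA9 fell from 747 to 257 (-1.54). Among 36 measured pectin methylesterases and inhibitors 2 rose and 2 fell, AT2G45220 leading at 1.73 and AT1G02810, titled pectinesterase 7, lowest at -2.23. Of 17 measured extensins and proline-rich proteins EXT4 rose from 652 to 2234 (1.78) and LRX3 from 140.2 to 309.5 (1.14).

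Genes for the 2 barriers of the root endodermis lay on opposite sides of 0. The Casparian strip is a lignin band that seals the space between endodermal cells, and suberin is a waxy coat laid down later on their surface. Of 5 measured Casparian strip genes 3 fell, 0 rose and 5 were below 0, with a median of -1.94. CASP1 (AT2G36100, chromosome 2, 15159743 to 15160669 on the minus strand), a scaffold protein of the strip, fell from 1288 to 193 (-2.74). PER64, the peroxidase of its lignin, fell from 434 to 97.9 (-2.15), and the dirigent protein gene ESB1 from 797 to 208 (-1.94). CASP2, of the same family as CASP1, was at least 2.53-fold lower. MYB36, the transcription factor that switches these genes on, was at -0.43, and the receptor gene GSO1 at -0.31. Of the stele and endodermis markers the 5 measured were between -0.76 and -0.17, their summed signal was 4074 in wrky47 control and 2765.0 in wrky47 Al, and their part in the Casparian strip values was not tested.

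Suberin genes lay on the other side. Each of the 14 measured was above 0 and 4 rose, with a median of 0.69. ABCG16, a half-size transporter of the subfamily that holds the suberin exporters, rose from 356 to 1755 (2.3), FAR1 (AT5G22500), which makes fatty alcohols, from 356 to 869 (1.29) and the very-long-chain hydroxylase gene CYP86B1 from 689 to 1402 (1.03). MYB41, a suberin activator, rose from 82.9, near the floor, to 178 (1.11). The acyltransferase gene GPAT5 was at 0.7 and the feruloyl transferase gene ASFT at 0.4.

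Phenylpropanoid and lignin genes stayed near their control level apart from a few. Of 20 measured 3 rose and 1 fell, with a median of 0.21. Besides CCOAMT and BCB, CCR2 (AT1G80820), a cinnamoyl-CoA reductase known from defence, rose from 338 to 863 (1.35). CAD4, of the alcohol dehydrogenase step, fell from 1026 to 427 (-1.26), while the entry enzyme genes PAL1 and PAL2 were at 0.72 and 0.63 and C4H at 0.24. Class III peroxidases, secreted enzymes that oxidise lignin units and much else, split: of 36 measured 6 rose and 7 fell, with a median of -0.16. PER4 rose from 92.5 to 409 (2.15) and AT5G39580 from 781 to 3289.5 (2.08). AT4G30170, titled peroxidase 45, fell from 4176 to 901 (-2.21) and AT2G37130 from 2756 to 786 (-1.81).

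**Figure D3:**
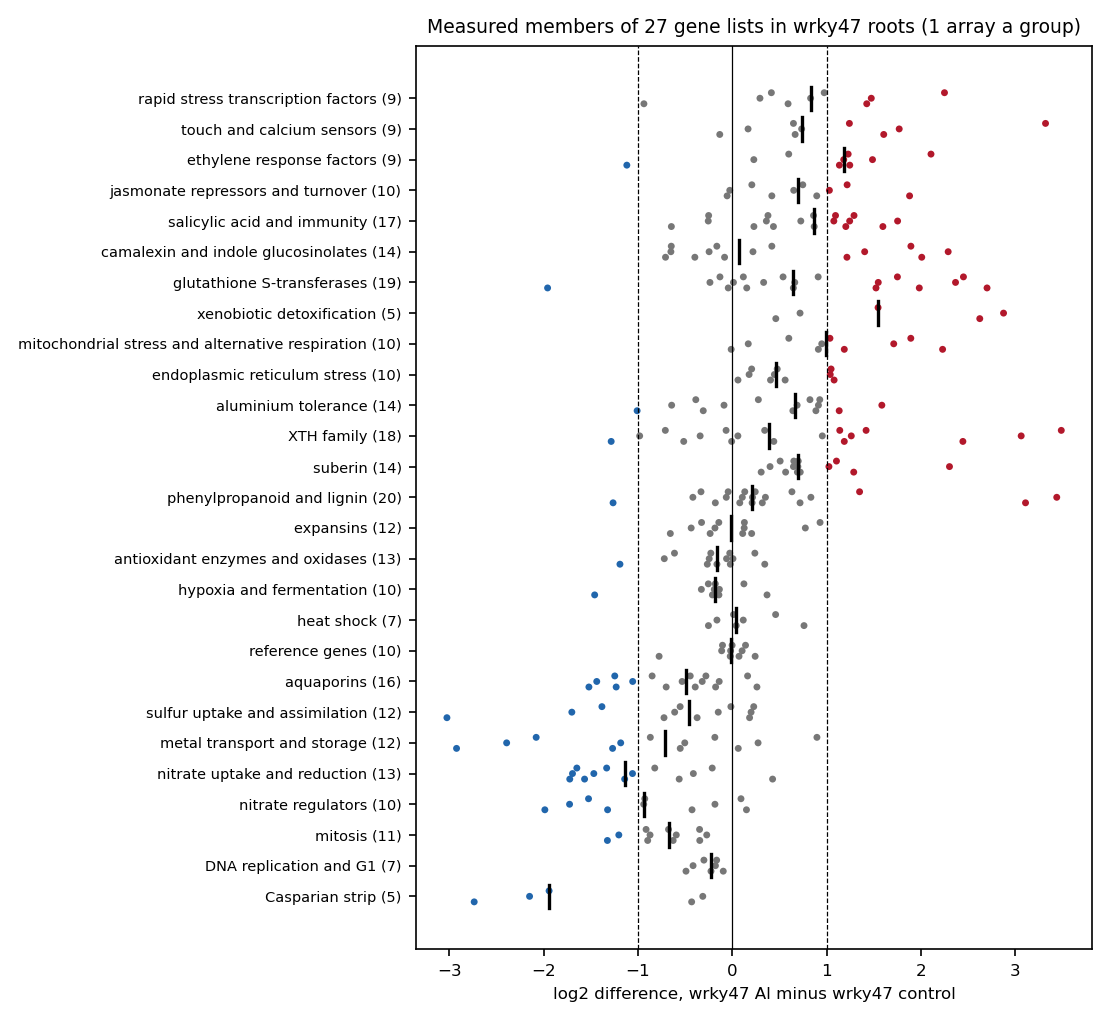
Each point is 1 measured gene of the list named at the left, with the number measured in parentheses, and the x axis is the log2 difference (wrky47 Al minus wrky47 control). Red points rose, blue points fell, black bars are list medians and dashed lines mark 2-fold. Lists of rapid stress factors, mitochondrial and ER stress, detoxification and suberin have medians right of 0. Antioxidant, hypoxia, nitrate, metal and Casparian strip lists have medians left of 0.

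Genes for nutrient uptake fell in several groups at once, nitrate first. Of 13 measured genes of nitrate uptake and reduction 8 fell, 0 rose and 12 were below 0, with a median of -1.14. The high-affinity transporter gene NRT2.1 fell from 9867 to 3052 (-1.69), its partner NRT3.1 from 7557 to 3430.1 (-1.14) and the dual-affinity transporter and sensor NRT1.1 from 9955 to 3957 (-1.33). NIR1, nitrite reductase, fell from 4316 to 1378 (-1.65), and G6PD3, UPM1 and FNR2 (AT1G30510), which supply its reducing power and its sirohaem cofactor, by log2 differences of -1.72, -1.57 and -1.47. NRT1.5, which loads nitrate into the xylem, had -1.06. The nitrate reductase genes did not follow, with -0.21 for NIA1 and 0.43 for NIA2. Of 10 measured nitrate regulators 4 fell and 0 rose, with a median of -0.93. LBD39, LBD37 and LBD38, nitrogen-responsive repressors, had -1.99, -1.52 and -1.32, and HRS1 (AT1G13300) -1.72, while NLP7, the nitrate sensor and master regulator, was at 0.09.

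Sulfur genes fell at the uptake step. Of 12 measured genes of sulfur uptake and assimilation 3 fell and 0 rose, with a median of -0.46. Beside SULTR1;2, the high-affinity transporter gene SULTR1;1 fell from 1079 to 332 (-1.7) and APR2, an adenylylsulfate reductase of the committed step, from 1338 to 514 (-1.38). SIR, sulfite reductase, was at -0.72, APS1 at -0.01 and GSH1, the first enzyme of glutathione synthesis, at 0.2. None of the 4 measured markers of sulfur starvation passed 2-fold, and SDI1 was at -0.85.

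Several genes for iron and other metals fell as well. Of 12 measured metal transport and storage genes 5 fell and 0 rose, with a median of -0.71. ZIP2, a zinc and manganese transporter of the root, fell from 1179 to 225 (-2.39), VTL1 from 1222 to 289 (-2.08) and NRAMP1, a manganese and iron importer, from 2849 to 1183 (-1.27). FER1, the iron store ferritin, fell from 4184 to 1844 (-1.18). In the iron deficiency list NAS1, which makes the metal chelator nicotianamine, fell from 1444 to 268 (-2.43) and the citrate effluxer FRD3 from 485 to 157 (-1.63). FIT, the regulator of iron uptake, was at least 2.53-fold lower, while the iron transporter gene OPT3 was at least 3.57-fold higher. Of the 15 iron deficiency genes on the array 5 were measured, so that most of the uptake genes have no difference here.

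**Figure D4:**
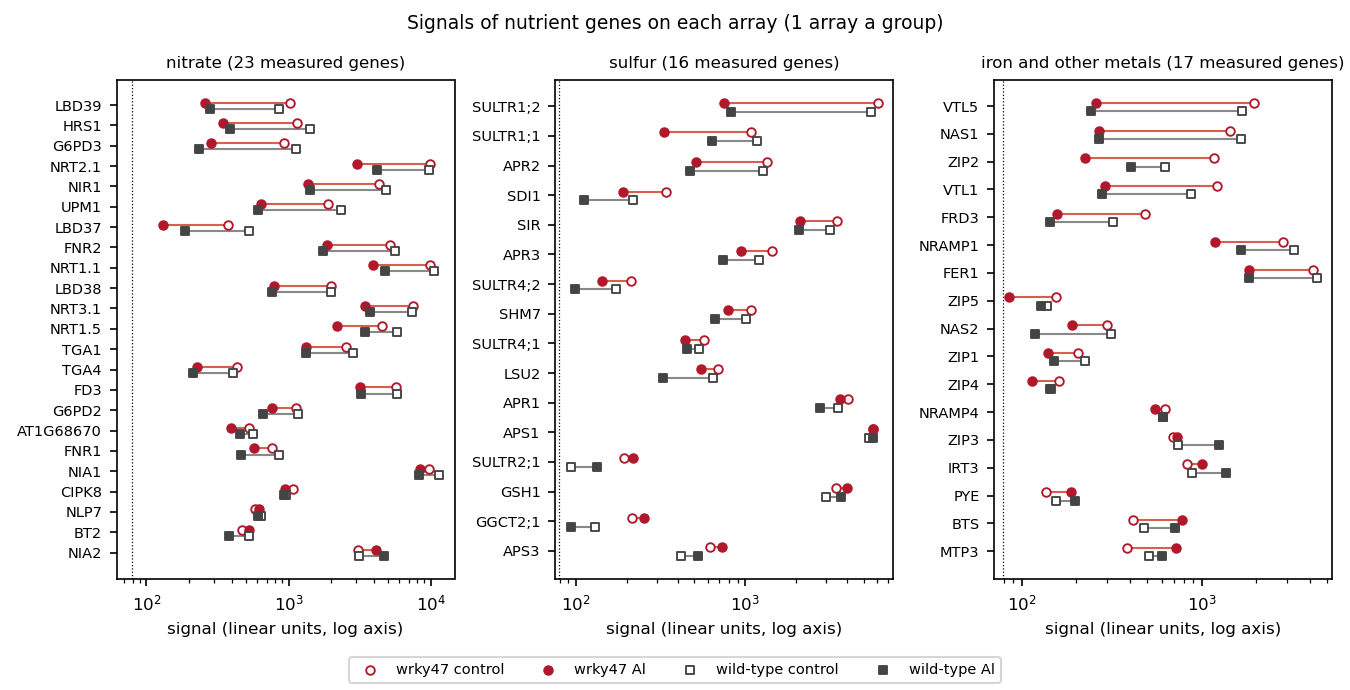
Signals on a log axis of the measured nitrate (23), sulfur (16) and metal (17) genes, with circles for wrky47, squares for wild type, open symbols for control and filled symbols for Al, 1 array each, ordered by the wrky47 difference. The dotted line is the floor of the wrky47 control array, 79.1. The filled circles lie left of the open circles for most genes of all 3 panels, with SULTR1;2, VTL5 and NAS1 showing wide gaps.

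Among genes of potassium, phosphate and water transport, aquaporins, the group with the most measured members, held most of the calls. HAK5, the high-affinity potassium transporter, fell from 4926 to 1427 (-1.79) as 1 of 7 measured potassium genes, and the channel gene AKT1 was at -0.49. Phosphate starvation genes had a median of -0.02, with 1 of 6 measured rising, WRKY75, and PHO1, which loads phosphate into the xylem, at -0.54. Outside these gene counts, the probe set shared by AT5G43350 and AT5G43370, titled phosphate transporter, fell from 5878 to 1973 (-1.58). Of 16 measured aquaporins, the water channels of plasma membrane and vacuole, 5 fell, 0 rose and 14 were below 0, with a median of -0.49. NIP1;1 fell from 349 to 122 (-1.52), PIP1;5 from 1954 to 722 (-1.44) and TIP2;3 from 3319 to 1415 (-1.23), while TIP4;1 was at least 3.27-fold lower. The plasma membrane aquaporin gene PIP2;1 was at -0.32.

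Genes of carbon shortage and amino acid breakdown did not move as a block. Of 12 measured 2 rose and 1 fell, with a median of 0.18. Besides ASN1, the trehalose phosphate synthase family gene TPS11 rose from 227 to 538 (1.24) and TPS10 (AT1G60140) fell from 605 to 285 (-1.09). The dark-induced genes SEN1 (AT4G35770) and BGLU30 were at least 3.78-fold and at least 3.5-fold higher, and the branched-chain aminotransferase gene BCAT2 was at least 2.02-fold lower. The breakdown genes IVD, MCCA and ETFQO were at 0.19, -0.09 and 0.15.

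The mitotic and DNA replication genes measured all lay below 0. Of 11 mitotic genes 2 fell and 11 were below 0, with a median of -0.68. The B-type cyclin genes CYCB1;4 and CYCB1;3, which drive entry into mitosis, fell from 536 to 214 (-1.32) and from 422 to 183 (-1.2). The mitotic kinase genes CDKB2;1 and AUR1 and the cytokinesis syntaxin gene KN were at -0.91, -0.87 and -0.9. DNA replication and G1 genes had 0 of 7 past 2-fold, 7 below 0 and a median of -0.23, with PCNA1 at -0.49 and CYCD3;1 at -0.1. Core histone genes had 0 of 25 past 2-fold, 23 below 0 and a median of -0.34. The 5 markers of root cap and meristem on the array were below the floor in both conditions, with a summed signal of 187.1 in wrky47 control and 177.8 in wrky47 Al, so they give no measure of the dividing tissue.

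Ribosomal protein genes and reference genes showed small differences. The ribosomal protein set was grouped by symbol or title, so not every member need be a cytosolic ribosomal protein. Of its 209 measured genes 1 rose and 0 fell, but 184 were below 0, with a median of -0.17. The gene that rose, AT1G53560, is only titled a member of the ribosomal protein L18ae family and had signals of 135 and 306 (1.18). Among 10 reference genes 0 passed 2-fold, with a median of -0.01, and ACT2 was at -0.02, UBQ10 at 0.24 and GAPC2, the lowest, at -0.78. Hypoxia and fermentation genes had 1 of 10 past 2-fold, HRE1, which fell from 760.3 to 277 (-1.46), and the alcohol dehydrogenase gene ADH1 was at -0.25. The clock genes measured, PRR5, GI, TOC1 and PRR7, lay between -0.24 and 0.22.

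The thalianol cluster, neighbouring genes that make a root triterpene, fell in part. THAS1, the thalianol synthase, fell from 576 to 169 (-1.77) and THAD from 1029 to 452 (-1.19), while THAH was at -0.92.

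The response of wrky47 was set beside that of wild type, which uses the other 2 arrays. In wild type 379 of 12434 measured genes rose with Al, 3.05%, and 301 fell, 2.42%, which makes 5.47% in either direction against 5.38% in wrky47. Of the 426 genes that rose in wrky47, 403 were measured in wild type: 300 of them passed 2-fold there in the same direction, 79 lay between 1.5-fold and 2-fold, 22 were under 1.5-fold and 2 had the opposite sign. A further 20 were at least 2-fold higher in wild type as a bound. Of the 245 genes that fell, 240 were measured in wild type, where 170 passed 2-fold downward, 59 lay between 1.5-fold and 2-fold, 11 were under 1.5-fold and 0 had the opposite sign. The median log2 difference of the genes that rose was 1.39 in wrky47 and 1.31 in wild type, and that of the genes that fell was -1.33 and -1.21; they were chosen by their wrky47 values, which lifts the wrky47 medians. Whether the genotypes differ in any response cannot be tested with 1 array a group.

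**Figure D5:**
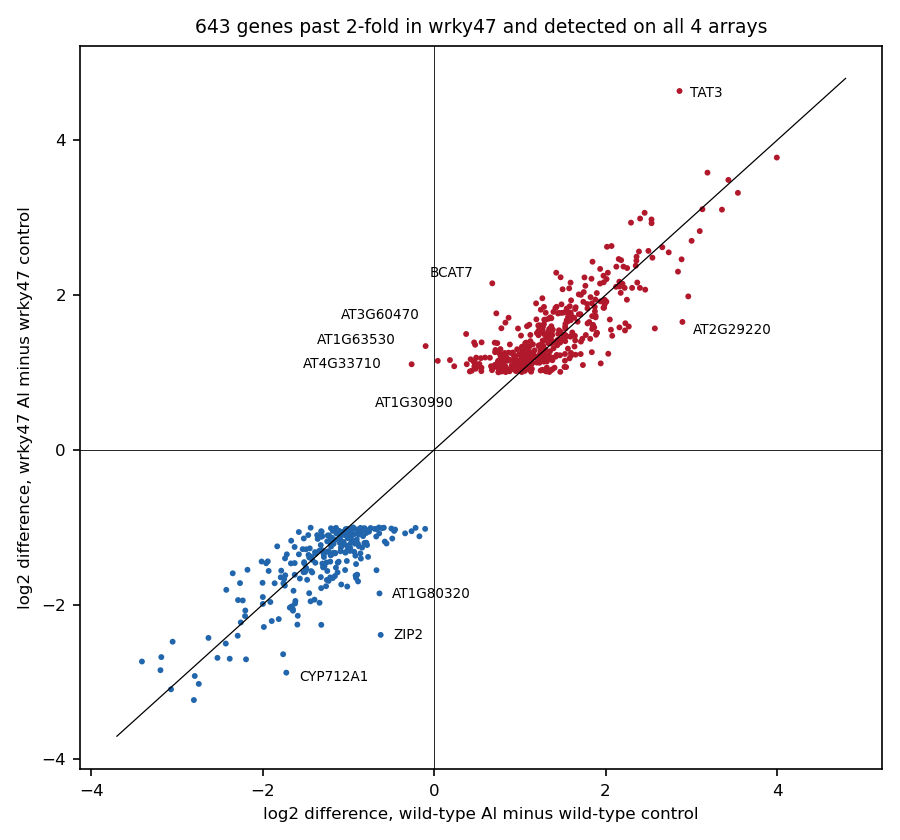
The 643 genes that passed 2-fold in wrky47 and were detected on all 4 arrays, with the log2 difference (Al minus control) in wild type on the x axis and in wrky47 on the y axis, and a diagonal line for equal values. Red points rose and blue points fell in wrky47, and all but 2 lie on the same side of 0 in both genotypes. The 10 genes farthest from the diagonal are named.

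Among these genes TAT3 had the largest difference between the responses, 4.64 in wrky47 against 2.86 in wild type. Wild type went from 316 to 2298 at this gene, so the wrky47 control array was lower and the wrky47 Al array higher. ZIP2 came next, with -2.39 in wrky47 and -0.62 in wild type, where its signals were 625 in control and 406 in Al. BCAT7, titled a branched-chain-amino-acid aminotransferase, had 2.15 against 0.68, with 256 and 1137 in wrky47 and 573 and 917 in wild type. For ZIP2 and BCAT7 the control arrays thus differed between genotypes in the direction that widens the wrky47 response. CYP712A1 fell from 1208 to 164 in wrky47 (-2.88) and had -1.72 in wild type, and AT1G80320, titled an oxygenase, had -1.86 and -0.64. AT2G29220, titled a lectin receptor kinase, was the only 1 of the 10 with the larger value in wild type, 1.65 in wrky47 against 2.9. The 10 were taken from genes past 2-fold in wrky47, a choice that favours larger values there, so this count does not compare the genotypes. AT3G60470 and AT1G30990 had 1.5 and 1.15 in wrky47 and 0.37 and 0.04 in wild type. Their control signals were also lower in wrky47, 104 and 99.9 against 165 and 184 in wild type. With Al the signals were 295 and 222 in wrky47 and 214 and 190 in wild type.

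Some lists had unlike counts in the genotypes. The WRKY family had 11 members up and 2 down in wrky47, with 6 up and 3 down of 47 measured in wild type. Its medians were 0.23 and -0.04. WRKY31 had control signals of 79.9 in wrky47, just above the floor, and 79.4 in wild type, under it. In wild type it was at least 2.79-fold higher with Al as a bound, which the count of 6 leaves out. WRKY18 had 1.71 in wrky47 and 0.87 in wild type, and WRKY28 1.36 and 0.48. The ER stress list had 3 genes up in wrky47 and 0 in wild type, with medians of 0.46 and 0.22. All 3 lay close to the threshold in wrky47. BIP3 had 1.08 against 0.24 in wild type, ERDJ3A 1.05 against 0.76 and BZIP60 1.04 against 0.97. Immunity genes had 7 up in wrky47 and 4 in wild type, with medians of 0.86 and 0.65. EDS1 and PAD4 lay close to the threshold, at 1.08 and 1.1 in wrky47 and 0.83 and 0.91 in wild type. ALD1 had 1.29 against 0.72, OM66 2.23 against 1.48, and STAR1 -1.01 against -0.22. Metal transport genes had 5 down in wrky47 and 3 in wild type, with medians of -0.71 and -0.35. Other lists ran further in wild type. Arabinogalactan proteins had 3 down in wrky47 and 5 in wild type, iron deficiency genes 2 and 3 down with medians of -0.65 and -1.03, and P450 genes 5 and 7 up. Mitotic genes had 2 down in wrky47 and 3 in wild type, and nitrate regulators 4 and 5. Medians were -0.02 and -0.46 for expansins and -0.40 and -0.78 for sulfur starvation markers. Suberin had 4 genes up in each genotype, Casparian strip 3 down in each, and nitrate uptake 8 down in wrky47 and 6 in wild type with medians of -1.14 and -0.98. List medians also carry the level of the arrays. The median log2 signal over all non-control probe sets was 7.152 in wrky47 control and 7.1 in wrky47 Al. In wild type it was 7.199 in control and 7.063 in Al, a larger drop. None of these differences between genotypes was tested.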

How the data were processed

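The authors deposited a table of log2 signals per probe set, per the file headers (columns headed normalized), beside intensity columns headed raw that hold the same values on a linear scale. The submitters' processing notes name MAS5, without settings. The sources used here give neither the scaling between arrays nor the genome build. Columns were tied to samples through the deposited value table, from which 0 values differed. Differences are log2 signals of wrky47 Al minus wrky47 control, so a scaling error between arrays enters each of them. The 64 control probe sets gave quality values, and the 987 probe sets naming several genes and 1209 naming none were left out. For 205 genes with several probe sets the one with the highest mean over the 4 arrays was used. A gene above the floor on 1 array has a bound, which divides its signal by the floor of the dim array.

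The genes, 50 lists and 20 families were chosen with earlier results of these data known. Named singly were the 25 highest and 25 lowest differences with a symbol, codes without one among the 25 highest and lowest of all, 6 bounds each way, list and family members past 2-fold or the 4 largest, others of the lists beside them, and the 10 genes farthest from the wild-type response. Of the genes this names, some are not reported here. Symbols come from a RefSeq table of assembly TAIR10.1 (20277 codes matched, 8924 with a symbol). The 7 alternatives were other scalings (quantile, median, 75th percentile), no floor, a 60th percentile floor, the mean of probe sets and an offset before log2. Python 3.11.15, numpy 2.4.6 and pandas 2.3.3 were used, and the computation was tested on simulated data. Precision is limited by the number of arrays. Promoter motifs were not analysed here.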

Additional observations from a re-analysis of the deposited data

Results flagged for a closer look

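A pair of genes rose in wrky47 and had the opposite sign in wild type. AT1G63530, titled hypothetical, had a log2 difference of 1.34 in wrky47, with signals of 150.3 in control and 381 in Al, and -0.10 in wild type, with 134.6 and 125.7. AT4G33710, titled a putative pathogenesis-related protein, had 1.11 in wrky47, with 185 and 398, and -0.26 in wild type, with 155 and 129. The difference between the genotypes was not tested, since each group has 1 array. Of the probe sets naming several genes, which no gene count includes, 585 of 987 were measured, 31 were at least 2-fold higher with Al and 11 at least 2-fold lower. Of the 1209 that name no gene 102 were measured and 0 passed 2-fold in either direction.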

How the results depend on the processing

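No paired analysis was possible because wrky47 control and wrky47 Al have 1 array each and so share 1 replicate number. The counts of 426 genes up and 245 down lay between 364 and 584 up and between 188 and 338 down under 6 of the 7 alternatives, and the share of higher among all calls lay between 62.8% and 66.4% under all of them, beside 63.5%. With the detection floor at the 60th percentile 241 genes rose and 122 fell, since fewer genes, 7975, were then measured. With quantile normalization 421 of the 426 and 237 of the 245 genes were called again. The median of auxin synthesis and conjugation genes, 0.28, turned to -0.019 without a floor and to -0.44 at the 60th percentile, and that of auxin response genes, 0.68, to -0.001 without a floor. The Casparian strip median, -1.94, was -0.31 at the 60th percentile, where CASP1, PER64 and ESB1 were no longer measured and only 1 gene was left. Named genes were compared under each alternative where they were still measured. In 2227 of these comparisons the gene kept its call or stayed under 2-fold as before. A call was lost in 28, mostly with an offset added before log2, 1 gene (PYL5) gained it and 0 turned direction. STAR1, ORA59, AOC3, IAA19 and ERDJ3A were among those that lost it. At the 60th percentile floor only 204 of the 342 named genes were still measured, and the others are not counted as lost. Signals near the floor limit what can be said of dim genes.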

Other observations

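Some probe sets that cannot be given to 1 gene were among the strongest differences. The probe set shared by AT3G44860, titled FAMT (farnesoic acid carboxyl-O-methyltransferase), and AT3G44870 went from 94.6 in wrky47 control to 1000.4 in wrky47 Al, a log2 difference of 3.402. That of AT2G02000 and AT2G02010, titled GAD3, a glutamate decarboxylase that makes the amino acid GABA, went from 107.5 to 1082 (3.33). The purine transporter probe set of AT1G57980 and AT1G57990 had 2.42. On the other side, the probe set titled AtHSD7, of AT5G50590 and AT5G50690, went from 1381 to 206.3 (-2.74), and that of AT3G24290 and AT3G24300, titled AMT1;3, an ammonium transporter, from 1504 to 333.3 (-2.17). The probe set of AT5G43350 and AT5G43370, titled phosphate transporter, went from 5878 to 1973 (-1.58). The defensin-like probe set of AT3G59930 and AT5G33355 had -1.48 in wrky47 and 0.19 in wild type, a difference that was not tested.

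Families of metabolism, transport and signalling are given beside the 5.38% of all measured genes that passed 2-fold. Of 65 measured cytochrome P450 genes 5 rose and 5 fell, with a median of -0.08. Of 53 measured UDP-glycosyltransferases 2 rose and 3 fell, UGT87A2 at 1.71 and UGT72E1 at -1.65, with a median of 0.04. Of 61 measured ABC transporters 4 rose and 2 fell, with ABCC7, titled an ABC transporter family member, at 1.85. Of 20 measured UMAMIT amino acid exporters 0 rose and 2 fell, UMAMIT14 and UMAMIT29, the latter at -1.51. Of 55 measured leucine-rich repeat kinases 0 rose and 3 fell, AT5G63410 lowest at -1.66 and IOS1, a kinase of immune signalling, at -1.35. Of 13 measured cysteine-rich receptor kinases CRK11 rose (1.47) and CRK29 fell (-1.11). Of 26 measured lipid transfer proteins 2 rose and 2 fell, and of 12 SAUR genes, small auxin-induced proteins, 1 rose and 1 fell.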
